A study of Drosophila melanogaster with 4 samples.

Results

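The centromere-proximal 5 Mb of the left arm of chromosome 3 (3L) is where the assembled arm of *Drosophila melanogaster* runs into pericentric heterochromatin. Regions enriched for the protein Su(var)3-7 in this interval were described by their distance from the proximal end of the assembled arm. The members are the enriched regions of the authors' combined list on 3L whose midpoint lies from 19543558 to 24543557, the last base of 3L in FlyBase release 5. There are 574 of them among the 10603 enriched regions of that list. By the same rule the interval holds 441 of the 6098 enriched regions of replicate 1 and 467 of the 6295 of replicate 2. Position alone decided membership, so widths, scores and replicate overlap were free to vary.

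The libraries come from wild-type embryos of the Oregon-R strain aged 14 to 16 h, crosslinked in 1.8% formaldehyde, with no mutation, transgene or treatment. Chromatin was precipitated with the antibody Q3448 against Su(var)3-7 in 2 ChIP-seq libraries, and 2 input libraries of genomic DNA served as their controls by replicate number. The embryos were used whole, so each value mixes all cell types of that stage. The labels do not say whether the replicates were separate embryo collections, so the spread between them may be technical.

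Su(var)3-7 is a zinc-finger protein whose gene was found as a dose-dependent suppressor of position-effect variegation, the patchy silencing of genes placed next to heterochromatin. It binds to heterochromatin protein 1 (HP1a, product of Su(var)2-5) and works together with the histone H3 lysine 9 methyltransferase Su(var)3-9. On polytene chromosomes of larval salivary glands Su(var)3-7 is known mainly from the chromocentre, where the pericentric regions are fused. The pericentric sequence that continues beyond the end of arm 3L is assembled separately in release 5, as 3LHet.

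Coverage here means the bases inside enriched regions as a percent of all bases. The score is the authors' deposited number for each region, of unstated scale and log base, so scores were ranked and compared only within a list. The lists hold no read counts, and the depth of the libraries is unknown. Means are followed by the SD, the standard deviation between the 2 ChIP replicates. A two-sided exact permutation test of 2 values against 2 cannot give a p below 0.333, and one of 2 paired differences cannot go below 0.5. No difference was therefore tested, and each is set beside the spread between replicates.

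Su(var)3-7 covered a large part of the interval, and covered its proximal 1.7 Mb far more densely than the rest. Replicate 1 covered 2.06 Mb of the 5 Mb, or 41.1%, and replicate 2 covered 1.88 Mb, or 37.7% (mean 39.4% ± 2.42, SD, n = 2). The interval makes up 20.4% of the length of 3L, and it held 60.9% of the covered bases of the arm in replicate 1 and 56.8% in replicate 2. In the combined list the members covered 52.8% of the interval and 47.1% of the covered bases of the arm lay there. The last region at the proximal end ran 221 bp past the stated end of 3L in replicate 1 and 225 bp in the combined list, and those bases were not counted.

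Coverage was lower in each 1 Mb band than in the one before it as far as 4 Mb from the proximal end. Within 1 Mb of the proximal end it was 77.0% in replicate 1 and 68.1% in replicate 2 (mean 72.5% ± 6.28, SD, n = 2). From 1 to 2 Mb it was 59.4% and 52.5% (mean 55.9% ± 4.88). From 2 to 3 Mb it was 30.5% and 29.1% (mean 29.8% ± 0.966). The drop between these last neighbouring bands exceeded the distance between the replicates by far, and the ranges of the replicates did not overlap in the first 3 bands. From 3 to 4 Mb coverage was 18.7% and 19.0%, and from 4 to 5 Mb it was 20.0% and 19.7%. The more distal of these bands was the higher one by 1.29 percentage points in replicate 1 and 0.705 in replicate 2, but in the higher-scoring 50% of each list it was the lower one, at a mean of 9.16% against 10.2%. The ratio of the first band to the last was 3.85 in replicate 1 and 3.45 in replicate 2 (mean 3.65 ± 0.280, SD, n = 2). In the combined list the 5 bands had 82.1%, 67.5%, 48.2%, 31.7% and 34.6%.

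At a resolution of 100 kb the change was described as a step. A fit of 2 levels returns a step for a graded fall too, so it cannot show which of these the change was. A least-squares fit of 2 levels to the 50 windows placed the step 1.7 Mb from the proximal end. It lay there, at position 22843557, in both replicates and in the combined list. The 17 windows on the proximal side, called the dense side here, averaged 75.1% in replicate 1 and 66.5% in replicate 2 (mean 70.8% ± 6.08, SD, n = 2). The 33 windows on the distal side, called the sparse side, averaged 23.6% and 22.9% (mean 23.2% ± 0.531). The fit chose the position that sets these levels apart, so their difference is a description. The 2 levels accounted for 78.9% and 70.8% of the variance among windows in replicates 1 and 2 and for 63.0% in the combined list. The dense side takes up 34% of the interval and held 62.1% of its covered bases in replicate 1 and 59.99% in replicate 2.

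**Figure D1:**
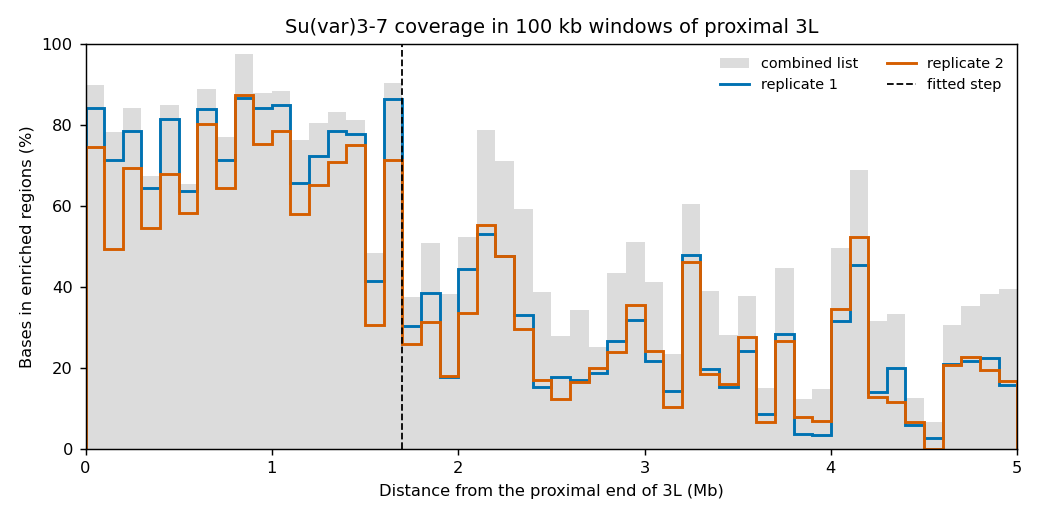
Percent of bases inside Su(var)3-7 regions in consecutive 100 kb windows, against the distance from the proximal end of 3L in Mb, for replicate 1 (blue line), replicate 2 (orange line) and the combined list (grey area). The dashed line marks the fitted step at 1.7 Mb, with mean coverage of 75.1% and 66.5% on its proximal side in the 2 replicates and 23.6% and 22.9% on its distal side.

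Within the dense side coverage was about as high in the last window before the step as at the end of the arm. The window at the very end of the arm had 84.2% in replicate 1 and 74.4% in replicate 2. The window from 1.6 to 1.7 Mb, the last before the step, had 86.4% and 71.4%. The next window, from 1.7 to 1.8 Mb, had 30.3% and 25.9%. Across this window border coverage changed by 56.0 percentage points in replicate 1 and 45.5 in replicate 2. The fit chose this border from the same windows, so the change across it is a description. The exception inside the dense side was the window from 1.5 to 1.6 Mb, at 41.5% and 30.7%, the lowest of the 17 in both replicates. Of the 17 dense windows, 16 exceeded 50% in replicate 1 and 15 in replicate 2, where the window from 0.1 to 0.2 Mb, at 49.4%, was the other one below.

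The sparse side was uneven. A shoulder followed the step: the windows from 2.1 to 2.2 Mb and from 2.2 to 2.3 Mb had 52.9% and 47.7% in replicate 1, and 55.3% and 47.6% in replicate 2. With 3 levels in place of 2, a choice made after the profile was seen, a middle level ended at 2.4 Mb in each list. That level averaged 37.8% and 38.1% in replicates 1 and 2 and 55.4% in the combined list, and beyond it the averages were 19.8%, 19.7% and 34.0%. The proximal border of the middle level was 1.7 Mb in replicate 1 and in the combined list and 1.5 Mb in replicate 2.

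Beyond 2.4 Mb, the windows from 3.2 to 3.3 Mb and from 4.1 to 4.2 Mb had the highest coverage in both replicates. The window from 3.2 to 3.3 Mb had 47.8% in replicate 1 and 46.1% in replicate 2, between neighbours of 14.3% and 19.7% in replicate 1 and 10.4% and 18.4% in replicate 2. The window from 4.1 to 4.2 Mb had 45.3% and 52.4%, after 31.6% and 34.5% in the window from 4 to 4.1 Mb. At the other extreme, the window from 4.5 to 4.6 Mb was covered over 2.74% in replicate 1 and held no enriched base in replicate 2. Of the 33 sparse windows, 5 were covered below 10% in each replicate, and 0 of the 17 dense windows were.

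Regions of the dense side were wider, though the fit had chosen that side by its coverage, which rises with width. They had a median width of 4906 bp in replicate 1 and 3604 bp in replicate 2, against 2073 bp and 2127 bp on the sparse side. In the combined list the medians were 5292 bp and 2023 bp. By band, the median in replicate 1 went from 4839 bp and 4515 bp in the first 2 Mb to 2151 bp, 2038 bp and 1940 bp beyond. In replicate 2 it went from 3481 bp and 3524 bp to 2279 bp, 2127 bp and 2040 bp. In both replicates the largest change in width between neighbouring bands lay at the border 2 Mb from the proximal end. In the combined list the 5 medians were 5872, 3567, 1950, 2072 and 1979 bp. There the largest difference in bp lay at the border 1 Mb from the proximal end, but the largest ratio lay at 2 Mb. The ratio of the first to the last band was 2.49 in replicate 1 and 1.71 in replicate 2 (mean 2.10 ± 0.557, SD, n = 2). When neighbours less than 500 bp apart were merged, the mean ratio rose to 3.21.

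The density of regions per Mb differed less than their width. Replicate 1 had 105.9 regions per Mb on the dense side and 79.1 on the sparse side, and replicate 2 had 121.8 and 78.8. In the combined list the order was the opposite, with 98.2 per Mb on the dense side and 123.3 on the sparse side. Broad regions made up much of the dense side. Regions over 10 kb there numbered 43 of 180 in replicate 1 and 29 of 207 in replicate 2, and they held 55.1% and 38.4% of the summed widths. On the sparse side 8 of 261 and 4 of 260 regions were that wide, with 12.3% and 6.25% of the summed widths.

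The stretches between regions were shorter on the dense side, which the choice of that side by its coverage also favours. Gaps on the dense side had a median length of 1088 bp in replicate 1 and 1354 bp in replicate 2, against 3419 bp and 3375 bp on the sparse side. Gaps over 10 kb numbered 4 and 8 on the dense side and 67 in each replicate on the sparse side. In the combined list the longest uncovered stretch of the dense side was 3L 24006426 to 24024889, of 18464 bp, in which replicate 1 had 0 enriched bases and replicate 2 had 31. The next was 24213042 to 24223801, of 10760 bp. The 3 that followed measured 9670, 7715 and 7344 bp, and in each of them replicate 2 had 0 enriched bases and replicate 1 at most 51. The longest on the sparse side was 20842169 to 20914520, of 72352 bp, with 26 enriched bases in replicate 1 and 0 in replicate 2, a stretch named after its length was seen.

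Scores were higher on the dense side in each list. Dense-side regions had median scores of 1.16 and 1.06 in replicates 1 and 2 and of 1.02 in the combined list, and sparse-side regions had 0.564, 0.664 and 0.401. By band, replicate 1 had 1.18 and 1.00 in the first 2 Mb and 0.570, 0.538 and 0.554 beyond. Replicate 2 had 1.02 and 0.988, then 0.680, 0.666 and 0.650. In the combined list the 5 medians were 1.04, 0.694, 0.402, 0.400 and 0.393. Their largest difference between neighbouring bands, by subtraction, lay at the border 1 Mb from the proximal end, and that of each replicate at 2 Mb. The difference between the first and the last band was 0.628 in replicate 1 and 0.374 in replicate 2, positive in both replicates. Within the dense side the rank correlation of score with distance across regions was -0.0452 in replicate 1 (180 regions) and -0.0235 in replicate 2 (207 regions). Across the regions of the sparse side it was -0.133 and -0.124 (261 and 260 regions). Neighbouring regions share a library and are not independent, so these values only describe the lists.

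Wide regions also had high scores. The rank correlation of width and score across dense-side regions was 0.601 in replicate 1 and 0.598 in replicate 2, and across sparse-side regions 0.765 and 0.716. Among regions 2 to 4 kb wide, a comparison added after the data were seen, the medians on the dense and sparse sides were 0.742 and 0.632 in replicate 1 and 0.909 and 0.713 in replicate 2. Combined-list regions of that width had 0.610 and 0.434. The order was kept in each list at like width. For the first against the last band, the difference at like width averaged 0.204 over the replicates, against 0.501 for regions of every width.

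**Figure D2:**
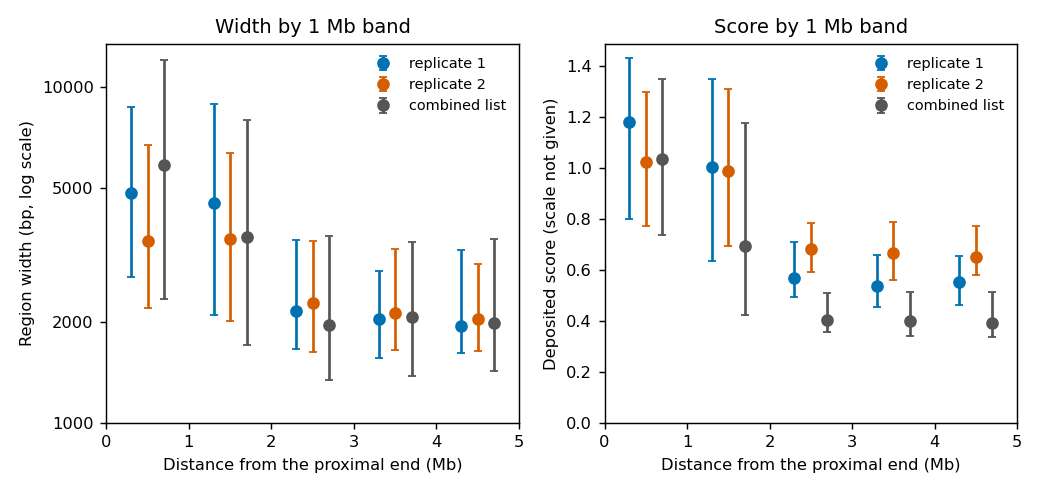
Median width (left, bp, log scale) and median deposited score (right) of the regions in each 1 Mb band from the proximal end, for replicate 1 (blue), replicate 2 (orange) and the combined list (grey). Points are medians and bars span the first to the third quartile of regions. In replicate 1 the median width goes from 4515 bp to 2151 bp and the median score from 1.00 to 0.570 between the bands on either side of 2 Mb.

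Of all combined regions, 10% belong by definition to the highest 10% of scores, those of 1.05 or more. On the dense side 80 of 167 members did (47.9%, 95% Wilson interval 40.5 to 55.4), and on the sparse side 7 of 407 (1.72%, 0.836 to 3.51). Beyond 5 Mb on 3L the figure was 25 of 1314 (1.90%). The sparse side and the rest of the arm therefore had similar shares, both below the share in the whole list. The intervals reflect counting error only, as if regions were independent.

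The highest-scoring members shared by both replicates all lay on the dense side, from 0.0854 to 1.44 Mb from the proximal end. The highest was 3L 24451680 to 24464665, of 12986 bp, which scored 2.46 and 2.25 in replicates 1 and 2 and 2.35 in the combined list. It was matched by 1 region in each replicate, over 99.6% and 98.7% of its width. By combined score, 24089688 to 24092462 (1.98, replicate 1 alone) and 24448270 to 24450424 (1.93, neither replicate) came next. They are outside the 10, which had to be shared by both. The second of the 10 was 23506138 to 23509570, with 1.77, 1.88 and 1.86 in the same order. It is the narrowest of the 10 at 3433 bp. The next 3 lay between 1.17 and 1.24 Mb. Of these, 23334745 to 23348800 had scores of 1.89 and 1.81 in the replicates, 23287544 to 23312129 had 1.89 and 1.76, and 23371799 to 23379125 had 1.88 and 1.53. Together with the other 5, the 10 regions measured from 3433 to 29244 bp and scored 1.66 or more in the combined list.

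The widest members were not those with the highest scores. The widest, 23438389 to 23483418, measured 45030 bp with a combined score of 1.03, and it was covered by 3 regions in replicate 1 and by 4 in replicate 2. The second, 24039528 to 24078835 (39308 bp, combined score 1.29), was a single region over 99.6% of its width in replicate 1 and 4 regions over 86.9% in replicate 2. The third, 23779846 to 23818732 (38887 bp, 1.35), was covered by 2 and 4 regions. The next, 23678885 to 23708128 (29244 bp, 1.69), is also among the 10 with the highest score. The last of the 5, 22847649 to 22876775 (29127 bp, 1.13), begins 4092 bp from the fitted step and was covered over 98.1% and 92.5% of its width by 3 regions in each replicate.

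Just across the step, the first of the high-scoring members of the sparse side was 22826565 to 22837702. It measured 11138 bp and scored 1.81 and 1.82 in replicates 1 and 2 and 1.65 in the combined list, just under the lowest of the 10 regions above. The 100 kb grid of the fit put it on the sparse side. The next 4 by score were 21814433 to 21828719 (14287 bp, 1.36 and 1.65 in the replicates) at 2.72 Mb, 20376032 to 20382897 (6866 bp, 1.32 and 1.50) at 4.16 Mb, 22730599 to 22736726 (6128 bp, 1.08 and 1.31) at 1.81 Mb, and 22443191 to 22457648 (14458 bp, 1.13 and 1.20) at 2.09 Mb. Distal of the one at 2.72 Mb lay an uncovered stretch of 45680 bp, 21763631 to 21809310, in which each replicate had 0 enriched bases. The one at 4.16 Mb lies in the window from 4.1 to 4.2 Mb given above. The widest members from 2 to 3, 3 to 4 and 4 to 5 Mb were 22166481 to 22187061 (20581 bp, combined score 0.575), 21264118 to 21282822 (18705 bp, 0.826) and 20464827 to 20477624 (12798 bp, 0.964). The first of these, within the shoulder, was split into 4 regions in replicate 1 and 6 in replicate 2.

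**Figure D3:**
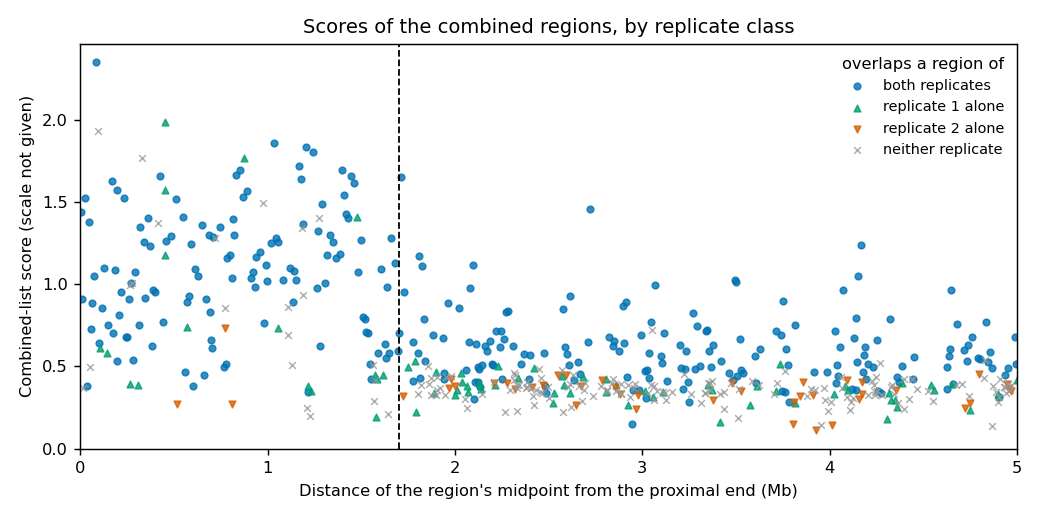
Combined-list score of each of the 574 members against the distance of its midpoint from the proximal end of 3L in Mb, with symbols for the replicate lists it overlaps. The dashed line marks the step at 1.7 Mb, and 80 of the 167 members on its proximal side but 7 of the 407 on its distal side reach a score of 1.05.

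The distal limit of the interval passes through sparse sequence. The members just inside it were 19544216 to 19546914 (2699 bp, combined score 0.419, found in replicate 1 alone) and 19549017 to 19554708 (5692 bp, 0.518, found in both). The regions just outside were 19508789 to 19510873 (2085 bp, 0.671, both) and 19491572 to 19492914 (1343 bp, 0.309, neither). From 5 to 6 Mb coverage was 11.8% and 10.7% in the replicates, and from 6 to 7 Mb 7.30% and 8.00%. The sparse side of the interval, with 23.6% and 22.9%, was covered 3.49-fold and 3.12-fold as much as the rest of the arm, which had 6.75% and 7.33%.

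Most regions of each replicate in the interval had a partner in the other replicate. In replicate 1, 359 of 441 regions (81.4%, 95% Wilson interval 77.5 to 84.8) overlapped a region of replicate 2 by at least 1 bp. In replicate 2, 416 of 467 regions (89.1%, 85.9 to 91.6) overlapped one of replicate 1. These shares were not set beside those of the whole replicate lists, so they do not set the interval apart. Regions with a partner had higher median scores than those without, at 0.738 against 0.527 in replicate 1 and 0.804 against 0.588 in replicate 2. They were also wider, at 3377 bp against 1589 bp and 2924 bp against 1526 bp. On the sparse side 77.4% and 81.5% of regions had a partner. The other replicate covered 22.9% and 23.6% of the bases there. A region meets the other list at 1 bp more easily than a single base does, so these shares are not alike. Counted by bases, 76.6% of those of replicate 1 and 79.1% of those of replicate 2 were covered in the other. The coverage of the 50 windows had a rank correlation of 0.981 between the replicates over the interval, 0.878 over the dense windows and 0.960 over the sparse ones. Windows are neighbours on 1 chromosome and these values are descriptions.

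On the dense side the replicates differed in one direction. Almost every base that replicate 2 covered there, 98.1%, was also covered in replicate 1, whereas 86.8% of the replicate 1 bases were covered in replicate 2. Of all bases of the dense side, replicate 1 covered 75.1% and replicate 2 covered 66.5%, so a large overlap comes with the coverage. Bases in replicate 1 alone came to 0.168 Mb and bases in replicate 2 alone to 0.0219 Mb. Replicate 1 had the higher coverage in 16 of the 17 dense windows, with a median difference of 7.70 percentage points and a largest one of 21.9 points, from 0.1 to 0.2 Mb. The exception was the window from 0.8 to 0.9 Mb, at 86.7% in replicate 1 and 87.5% in replicate 2. On the sparse side replicate 1 was higher in 18 of 33 windows and the median difference was 0.251 points. There 76.6% and 79.1% of the bases of replicates 1 and 2 were covered in the other.

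Replicate 1 had fewer regions on the dense side than replicate 2, 180 against 207, and they were wider. Of the dense-side regions of replicate 1, 42 of 180 each spanned 2 or more regions of replicate 2, and 10 of the 207 replicate 2 regions spanned 2 or more of replicate 1. For 73 dense members matched by exactly 1 region in each replicate, the replicate 1 region was the wider in 64 and the replicate 2 region in 9, with medians of 4967 bp and 4017 bp. For 126 such members on the sparse side the numbers were 60 and 65, with medians of 2421 bp and 2390 bp. The edges of these matched regions differed by a median of 148 bp on the dense side and 156 bp on the sparse side, and 61.6% and 57.1% of edges lay within 200 bp. Of the dense-side regions with no partner, 23 were in replicate 1, with a median width of 1780 bp and a median score of 0.593, and 3 were in replicate 2. The depth of the 2 libraries is unknown and its part in the difference was not tested.

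Across the whole combined list, 38.6% of regions overlapped a region in both replicates and 38.7% overlapped neither. Of the 574 members, 296 (51.6%, 95% Wilson interval 47.5 to 55.6) overlapped both, 70 replicate 1 alone, 42 replicate 2 alone and 166 (28.9%, 25.4 to 32.8) neither. Members found in both replicates had a median width of 4938 bp and held 82.4% of the summed widths. Members found in neither had a median width of 1312 bp and held 8.96%. The share found in both was 77.8% (68.6 to 84.8) within 1 Mb and 60.4% (50.9 to 69.2) from 1 to 2 Mb. In the bands beyond it was 39.0%, 46.7% and 41.3%, close to the whole list. Beyond 5 Mb on 3L it was 31.2% (28.8 to 33.8). A denser replicate list makes an overlap more likely, and how much of the rise towards the proximal end comes with coverage was not tested.

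**Figure D4:**
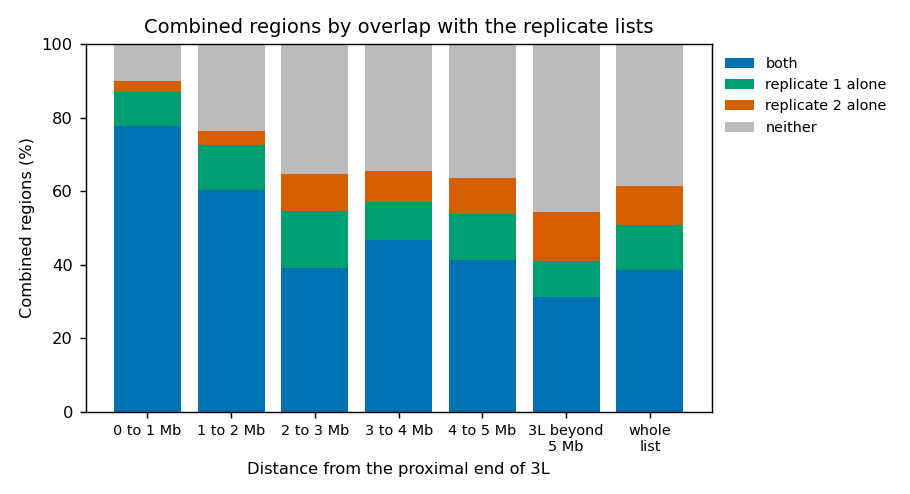
Share of combined regions that overlap a region of both replicates, of 1 replicate alone or of neither, in each 1 Mb band from the proximal end of 3L, on 3L beyond 5 Mb and in the whole combined list. The share in both is 77.8% within 1 Mb, 41.3% from 4 to 5 Mb, 31.2% beyond and 38.6% in the whole list.

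Members found in neither replicate had higher scores on the dense side than on the sparse side. The narrowest region of each replicate list, over all sequences, measures 1301 bp, and that of the combined list 1001 bp. Of the 166 members in neither replicate, 81 were narrower than 1301 bp, and so were 0 of the 296 in both. Regions in neither had a median width of 1316 bp over the whole combined list and 1312 bp among members. Their narrowness therefore does not set the interval apart. On the sparse side, 144 members in neither had a median score of 0.359, and 0 of them scored above 1. On the dense side, 22 members in neither had a median score of 0.859, and 8 of them scored above 1. In the first band, where there were 10, the median was 1.14, above the 1.05 of the 77 members in both. The highest-scoring of them, 24448270 to 24450424, had a combined score of 1.93 over 2155 bp, and the nearest enriched base was 1248 bp away in replicate 1 and 1366 bp away in replicate 2. The second, 24211900 to 24213041 (1.76, 1142 bp), lay more than 5 kb from a region of either replicate. These regions were chosen after their values were seen. The rule that admitted them to the combined list was not given in the sources used here.

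Set beside the same interval of 2 other large autosomal arms, 2L and 3R, 3L was the most densely covered of the 3. Its dense side was longer than that of 2L. The arm 2R was not compared. For the proximal 5 Mb of 3L, 2L and 3R, coverage averaged 39.4% ± 2.42, 30.1% ± 2.47 and 21.6% ± 0.428 in that order (SD, n = 2). The replicate values of the 3 arms did not overlap: 41.1% and 37.7% on 3L, 31.9% and 28.4% on 2L, and 21.9% and 21.3% on 3R. In the first band 3L had 72.5% ± 6.28 and 2L 66.1% ± 5.41. The ranges of the replicates overlapped there, while within each library 3L was the higher arm, by 7.04 percentage points in replicate 1 and 5.81 in replicate 2. In the band from 1 to 2 Mb 3L had 55.9% ± 4.88 and the others 21.1% ± 2.70 and 22.2% ± 0.599. From 3 to 4 Mb the order turned, with 18.9% ± 0.221 on 3L and 27.6% ± 1.47 on 2L. Over the whole 5 Mb, 3L exceeded 2L by 9.22 and 9.30 points in replicates 1 and 2, and 3R by 19.2 and 16.4 points.

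The same fit of 2 levels placed the step of 2L at 0.9 Mb in each of the 3 lists, with 75.4% and 67.3% on its dense side and 22.3% and 19.8% beyond in the replicates. These levels lay close to the 75.1%, 66.5%, 23.6% and 22.9% of 3L. On 2L the 2 levels accounted for 68.4% and 64.9% of the variance among windows in replicates 1 and 2 and 48.1% in the combined list. On 3L they accounted for 78.9%, 70.8% and 63.0%. On 3R the fit gave 0.3 Mb in replicate 1 and 1.5 Mb in replicate 2 and in the combined list, so no single step could be placed there. The pericentric sequence 3LHet was covered over 68.6% and 56.3% in the replicates, with median widths of 4127 bp and 3136 bp and median scores of 1.14 and 0.996. The dense side of 3L had coverage of 75.1% and 66.5%, medians of 4906 bp and 3604 bp and scores of 1.16 and 1.06. Within each replicate it was somewhat above 3LHet in all 3 measures. The replicate ranges of coverage and width overlapped, and the fit had chosen the extent of the dense side by its coverage. How far the assembled sequence reaches into heterochromatin differs between arms, so equal distances need not be equal in kind, and the arms were not tested against each other.

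**Figure D5:**
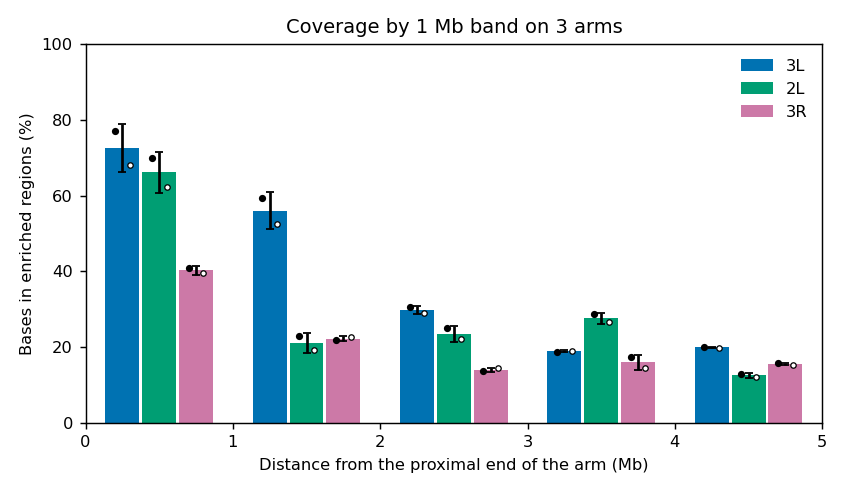
Coverage in 1 Mb bands from the proximal end of 3L (blue), 2L (green) and 3R (pink). Bars are means over the 2 ChIP replicates with SD, black points replicate 1 and white points replicate 2. From 1 to 2 Mb, 3L has 55.9% where 2L has 21.1% and 3R 22.2%.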

How the data were processed

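Su(var)3-7 ChIP-seq of 2 replicates was analysed from 3 region lists: 1 list for each ChIP replicate and 1 combined list. Each region has a deposited score, whose scale and making the authors' file headers do not state. The other deposited values used are the start and end of each region, 1-based, on FlyBase release 5, per the file headers. The submitters' processing notes name Bowtie 0.12.7, a short-read aligner. The peak caller and its limits, the placing of repeat reads and the making of the combined list were not given in the sources used here. Repeat handling could raise or lower coverage near the centromere.

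Regions were assigned to bands by midpoint, and coverage was counted by bases. The step was the least-squares change point of 2 levels over 100 kb windows. Overlap meant at least 1 bp. The code was tested on simulated regions with known coverage and step. Shares carry 95% Wilson intervals. Named regions were, among members shared by both replicates, the 10 highest by score, the 5 widest, the 5 with the highest score on the sparse side and the widest of each band. Whatever their overlap, 2 members and 2 other regions next to the distal limit were named too, as were the 5 longest uncovered stretches of the dense side. The uncovered stretches of the sparse side, the members in neither replicate and a high-scoring member in replicate 1 alone were named after their values were seen. The interval, tests and lists were chosen with earlier results of these data known. A release 6 gene table could not be used with release 5 positions, so no gene or sequence is given. The 1 depleted region of replicate 1, on chromosome 4, was left out. Alternatives were other windows, the higher-scoring 50% of each list, merged neighbours, means, 50% reciprocal overlap and single replicates. Analyses used Python 3.11.15, numpy 2.4.6, scipy 1.17.1 and pandas 2.3.3.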

Additional observations from a re-analysis of the deposited data

How the results depend on the processing

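The order of the 2 most distal bands turned in the higher-scoring 50% of each list, where coverage from 4 to 5 Mb minus that from 3 to 4 Mb was -1.07 percentage points in place of 0.999. No other ratio or difference turned its direction under the alternatives run. The step position, the coverages of single bands and the shares of regions were not checked for a direction. The step of the replicate mean stayed at 1.7 Mb with 50 kb windows, in the higher-scoring 50% of each list and with 3 levels, and the fit of 2 levels put it there in either replicate alone. With 3 levels it lay at 1.5 Mb in replicate 2. The step of the replicate mean moved to 1.8 Mb with 200 kb windows. In settings added after the data were seen, it moved to 1.73 Mb with 25 kb windows and 1.75 Mb with windows shifted by 50 kb. The 200 kb grid and the shifted grid hold no border at 1.7 Mb, so the step could not have stayed there. In the higher-scoring 50% of each list the ratio of the first to the last band rose to 7.47, that of the proximal 5 Mb to the rest of 3L from 5.61 to 11.3, and those of 3L to 2L and to 3R from 1.31 to 1.48 and from 1.82 to 2.47; replicate 1 regions were shared at 85.4%. The width ratio rose to 3.21 with neighbours merged, and the score difference fell to 0.204 among regions 2 to 4 kb wide; each cause was not tested. With 50% reciprocal overlap, 67.8% of replicate 1 and 64.0% of replicate 2 regions were shared. At that overlap 38.0% of members matched both replicates and 34.7% neither, since fewer regions can match. The share of the whole combined list at that overlap is not given here, so the members cannot be set beside it. Against a single replicate 58.9% to 63.8% of members overlapped and 36.2% to 41.1% did not, since only 1 list has to match. Over the whole combined list, 38.6% of regions overlapped both replicates, 12.1% replicate 1 alone and 10.55% replicate 2 alone. Other values with 1 replicate were 3.45 to 3.85 for the band ratio, 1.71 to 2.49 for width, 0.374 to 0.628 for score, 1.29 to 1.33 and 1.77 to 1.88 for 3L over 2L and 3R, and 5.14 to 6.09 for the rest of 3L. Bands and arms were compared within each library, so these ratios are paired by replicate. Without this replicate block, as ratios of the replicate means, they were 3.65 for the bands, 2.09 for width, 1.31 and 1.82 for 3L over 2L and 3R, and 5.60 for the rest of 3L. ChIP was not compared with input, for which no region list was used here. Unknown depth limits what the absence of a region shows.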
